A study of Mus musculus with 18 samples.

Results

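The genes described here are 10 enzymes that build and cross-link collagen after its chains are made: the lysyl oxidases Lox, Loxl1, Loxl2, Loxl3 and Loxl4, the lysyl hydroxylases Plod1, Plod2 and Plod3, and the prolyl 4-hydroxylase alpha subunits P4ha1 and P4ha2. They were taken by symbol from a table of 18264 genes, and all 10 were present and passed the filter on low values in both arms of the study. RNA sequencing was done on mouse neonatal ventricular cardiac fibroblasts, in 18 libraries that form 6 groups of 3. In the knockdown arm, cells had control siRNA (si-NC), siRNA against the forkhead transcription factor gene Foxm1 (si-Foxm1), the pressor hormone angiotensin II (Ang-II), or that siRNA and the hormone together (si-Foxm1+Ang-II). In the overexpression arm, cells had an overexpression control (OE-NC) or overexpressed Foxm1 (OE-Foxm1). Which vector was used, whether Ang-II cells also had control siRNA, and the dose and time of the hormone are not stated in the labels. Nothing in the labels says that libraries of a group came from separate cultures or animals, so each p-value measures the spread between these libraries, which may be technical.

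Newly made collagen chains are hydroxylated in the endoplasmic reticulum, where prolyl 4-hydroxylase gives the triple helix its thermal stability and lysyl hydroxylases prepare lysines for sugars and cross-links. Both kinds of enzyme need iron, oxygen, 2-oxoglutarate and ascorbate. Outside the cell, the copper-dependent lysyl oxidases oxidise lysine and hydroxylysine side chains, which then join neighbouring collagen or elastin molecules and stiffen the matrix. In the injured or overloaded heart these enzymes are known for their part in fibrosis.

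Regulatory sequence near the genes was read first, because several of these enzymes are known targets of hypoxia-inducible factors, which bind the core ACGTG. Promoter windows of 300 bases, 250 before to 50 after the start of transcription (RefSeq, GRCm38.p6), were available for 5 of the 10 genes (Loxl4, Plod1, Plod3, P4ha1 and P4ha2). Of these windows 3 held ACGTG on either strand, against 19.6% of 32851 windows of all genes. The stretches below run from 100 bases before to 50 after the start, on the plus strand, with ACGTG or its reverse complement CACGT in capitals; they lie at chr5:136986919-136987068, chr10:59323196-59323345 and chr11:54100824-54100973.
Plod3: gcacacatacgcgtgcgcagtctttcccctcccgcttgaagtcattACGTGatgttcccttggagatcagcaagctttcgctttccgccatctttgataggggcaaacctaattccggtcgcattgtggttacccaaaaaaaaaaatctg
P4ha1: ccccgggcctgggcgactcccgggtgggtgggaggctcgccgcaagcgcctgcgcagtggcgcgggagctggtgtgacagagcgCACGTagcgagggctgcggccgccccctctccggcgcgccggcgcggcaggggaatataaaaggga
P4ha2: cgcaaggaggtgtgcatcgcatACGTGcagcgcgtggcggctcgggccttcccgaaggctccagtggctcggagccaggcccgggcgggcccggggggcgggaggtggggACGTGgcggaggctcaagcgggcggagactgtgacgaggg
The match lay at -54 in Plod3, at -16 on the reverse strand in P4ha1, and at -78 and +11 in P4ha2. The forkhead core TAAACA, the cell cycle element TTTGAA and the AP-1 site TGANTCA were in 0 of the 5 windows, against 13.4%, 17.9% and 7.81% of all windows. The SMAD element GTCTG was in Plod1 and Loxl4, and in 49.6% of all windows. These matches describe letters in the windows and say nothing of binding.

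The 7-base word TCCATTA with the overlapping word CCATTAA, and likewise the word AATAGGA with the overlapping word ATAGGAA, had been picked in an earlier analysis of these data because genes whose 3′ UTR held them were lower with the Foxm1 siRNA. At least 1 of them occurs in the annotated 3′ UTR of 26.0% of 10848 genes (GENCODE M21, GRCm38). Among the 10 enzyme genes only Loxl2 holds any, at base 1075 and base 1891 of its 2715-base UTR, shown with 10 bases on each side and the word in capitals.
Loxl2, base 1075: agcaaatgtgTCCATTActcttgagtt
Loxl2, base 1891: ctgggacaggATAGGAAgagaaagtca
The 3′ UTRs of the other 9 genes hold none of the 4 words, both of the 6 that were also called lower with the siRNA (Lox, Loxl1, Loxl4, Plod2, Plod3 and P4ha1) and of the 3 that were not.

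Library totals, recovered from the values, were between 14988993 and 19343343 fragments, and the 3 OE-NC libraries were the smallest. Replicates gave a chi-square per gene of 1.69 to 5.52 on average, where counting error alone gives 1, and the highest values, 5.09 and 5.52, were those of pairs with Ang-II replicate 3. Foxm1 was 10.4, 9.64 and 10.3 FPKM in the si-NC libraries, 6.06, 5.13 and 6.71 in si-Foxm1, 4.23, 4.03 and 5.65 in Ang-II and 3.55, 3.36 and 3.03 in si-Foxm1+Ang-II (FPKM, fragments per kilobase of gene length, scaled to the total of the library). In the other arm it was 15.7, 17.1 and 17.1 FPKM in OE-NC and 399, 480.0 and 487 in OE-Foxm1. Foxm1 was thus lowest in the group with both siRNA and hormone, and the Ang-II libraries held less of it than the si-NC libraries. All fibroblast markers were detected, but so were those of cardiomyocytes, whose 14 markers summed to 12988 to 13993 FPKM in si-NC against 4775 to 4984 for 12 fibroblast markers, and 0 of the markers of these cell types were at 0 in every library. The cardiomyocyte sum was 7038 to 7480 FPKM in si-Foxm1, 9658 to 10619 in Ang-II, 5383 to 5557 in si-Foxm1+Ang-II, 7387 to 7864 in OE-NC and 8304 to 8620 in OE-Foxm1. The sum of 10 macrophage and leukocyte markers was 235 to 241 FPKM in si-NC, 120.2 to 149 in si-Foxm1, 289 to 319 in Ang-II, 118 to 138 in si-Foxm1+Ang-II, 176 to 195 in OE-NC and 256 to 290.0 in OE-Foxm1. With the siRNA, 12 of 14 cardiomyocyte markers fell and 1 rose, and 7 of 7 tested macrophage and leukocyte markers fell. With angiotensin, 13 cardiomyocyte markers fell and 1 rose, while 5 of the 7 macrophage and leukocyte markers rose and 0 fell. With overexpression, 8 cardiomyocyte markers rose and 2 fell, and 5 macrophage and leukocyte markers rose and 2 fell. Of the 12 fibroblast markers, 2 rose and 4 fell with the siRNA (1 and 9 under median-of-ratios scaling), 3 rose and 7 fell with angiotensin, and 8 rose and 1 fell with overexpression. Of all genes tested without that scaling, 48.5% rose and 17.2% fell with the siRNA. The shares were 15.2% and 29.2% with angiotensin, and 27.1% and 28% with overexpression. Endothelial markers went 4 higher and 0 lower of 7 tested with the siRNA, a share of rises near that of all genes. They went 0 and 5 with angiotensin, and 2 and 0 with overexpression. Smooth muscle and pericyte markers went 0 higher and 6 lower of 7 tested, 3 and 3, and 2 and 2 in these comparisons, and epicardial markers 0 higher and 5 lower of 6, 0 and 4, and 3 and 2. The summed level in si-NC was 174 to 178 FPKM for 8 endothelial, 207 to 222 for 8 smooth muscle and pericyte and 56.4 to 61.8 for 6 epicardial markers. In si-Foxm1 these sums were 202 to 210.4, 164 to 179.7 and 44.6 to 50.8 FPKM, and in Ang-II 152 to 153, 255 to 282 and 38.7 to 39.8 FPKM. In OE-NC they were 159.5 to 163, 185 to 193 and 41.4 to 43.2 FPKM, and in OE-Foxm1 174 to 179, 183 to 193 and 42.3 to 46.2 FPKM. In si-Foxm1+Ang-II they were 178 to 189, 220.5 to 229 and 34.5 to 37.1 FPKM. In such bulk samples fewer cells of a type and less RNA per cell cannot be told apart, and the part of these shifts in the changes below was not tested.

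Levels differed widely between the enzymes. Because FPKM is per length, genes can be compared: Lox, the founding lysyl oxidase, had the highest level of the 10 genes in every group, and Loxl3 and Loxl4 had the lowest. Lox ranged from 140.1 to 1154 FPKM over the 18 libraries, Loxl1 from 116 to 163, Loxl2 from 84.1 to 225, P4ha1 from 58.9 to 101, and the 3 Plod genes and P4ha2 from 34.3 to 78.6 together. Loxl3 and Loxl4 stayed between 5.70 and 12.5 FPKM. Each was measured on at least 405 fragments in every library, so counting error was at most 4.97% of a value (Loxl3) and 1.02% for Lox. The ratio of the highest to the lowest group mean was 7.58 for Lox, 2.41 for Loxl2, 2.04 for Plod2, 1.83 for Loxl4, 1.63 for P4ha1, 1.58 for Plod3, 1.50 for Loxl3, 1.30 for P4ha2, 1.26 for Loxl1 and 1.19 for Plod1. The spread over conditions was thus widest for Lox and narrowest for Plod1 and Loxl1.

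**Figure D1:**
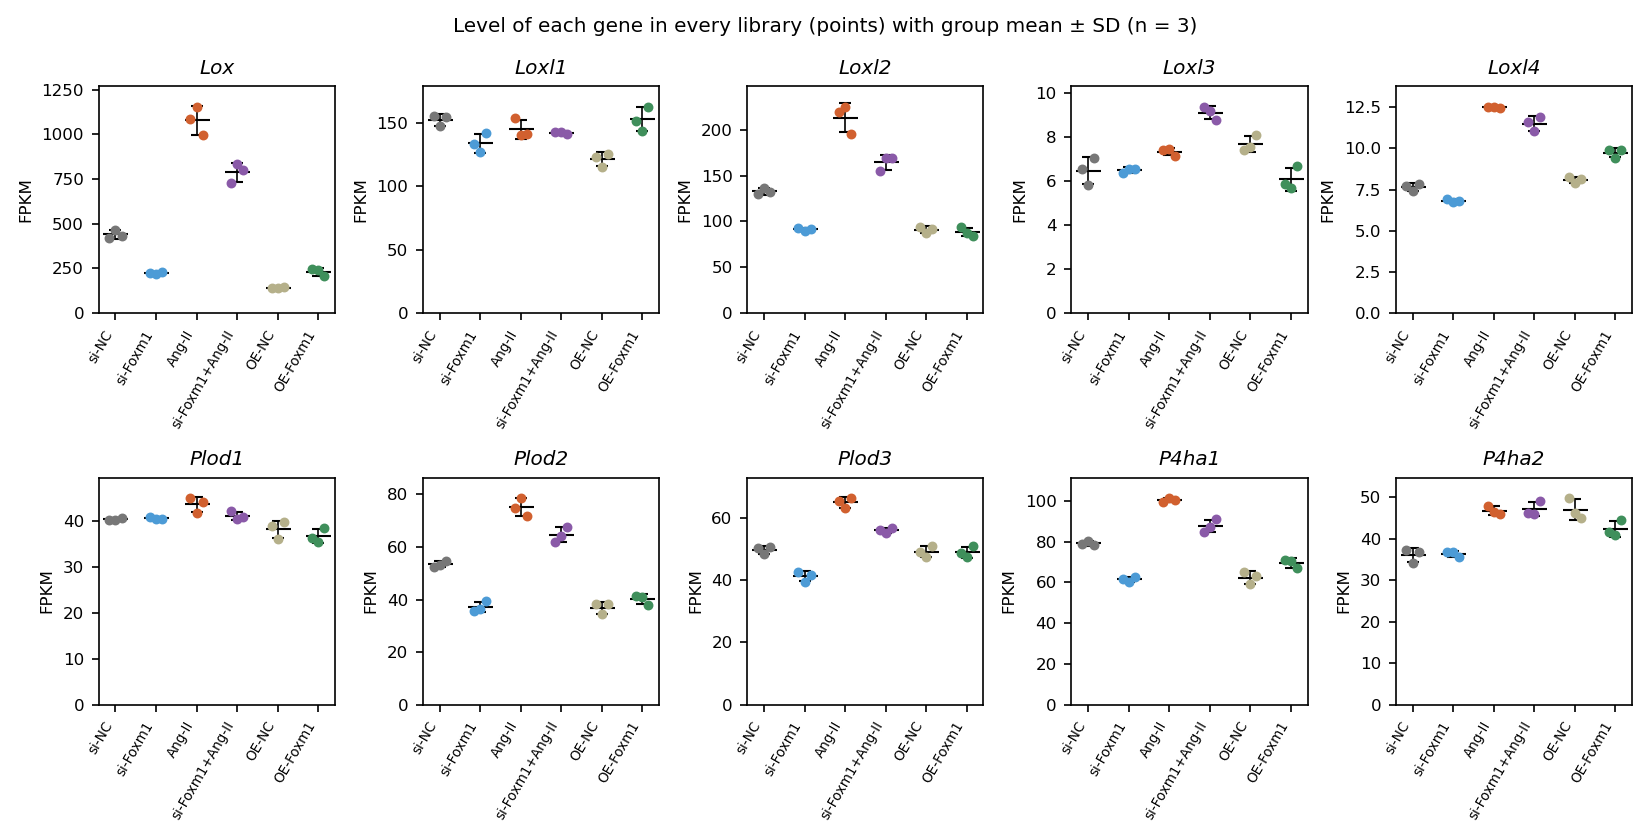
FPKM (y axis, from 0) of each of the 10 genes in all 18 libraries, by group (x axis); points are libraries, bars are the mean and SD of 3 libraries. The Ang-II libraries of Lox sit between 995 and 1154 FPKM, above every other library, whereas Plod1 stays between 35.6 and 45.1 FPKM.

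What the siRNA changes in unstimulated cells was addressed by si-Foxm1 against si-NC. Of the 10 enzyme genes 7 fell and 0 rose, with representatives of all 3 families among the 7. A gene was called when its adjusted p was under 0.05 (limma on log2(FPKM+1), Benjamini-Hochberg over 11180 genes), which held for 65.7% of all genes, 48.5% higher and 17.2% lower. The members' median log2 fold change was -0.23, against 0.11 over all genes, and median-of-ratios scaling moves the latter to 0.00.

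Lox measured 421, 465 and 433 FPKM in si-NC and 225, 219 and 231 in si-Foxm1. The groups were far apart, and the si-Foxm1 mean was 0.51 times that of si-NC. On the log2 scale Lox fell by 0.96 ± 0.06 (SE; adjusted p = 1.11e-08, limma). Loxl2, which acts on collagen IV and fibrillar collagen, measured 129.6, 137 and 132 FPKM in si-NC and 92.7, 89.4 and 91.9 in si-Foxm1. Its log2 fold change was -0.53 ± 0.05 (adjusted p = 6.28e-07, limma). Every si-Foxm1 library of Loxl2 was again below every si-NC library. Smaller falls were seen for Loxl1, an elastic fibre cross-linker (-0.19 ± 0.04, adjusted p = 0.00168, limma), and Loxl4 (-0.14 ± 0.04, adjusted p = 0.00362, limma). Loxl3 did not pass (0.01, 95% interval -0.11 to 0.12).

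Among the lysyl hydroxylases, Plod2 makes the hydroxylysines of the collagen telopeptides that lead to stable pyridinoline cross-links. It measured 52.6, 53.0 and 54.7 FPKM in si-NC and 35.7, 36.4 and 39.5 in si-Foxm1. The groups did not overlap, and the log2 fold change was -0.51 ± 0.04 (adjusted p = 3.44e-07, limma). Plod3, which also carries the sugar transferase activities for hydroxylysine, lay at 48.3 to 50.5 FPKM in si-NC and 39.4 to 42.7 in si-Foxm1, and fell (-0.26 ± 0.03, adjusted p = 1.29e-05, limma). Plod1, the hydroxylase of helical lysines, lay at 40.2 to 40.7 FPKM in si-NC and 40.5 to 41.0 in si-Foxm1 (0.01, 95% interval -0.06 to 0.07). P4ha1, the main catalytic subunit of prolyl 4-hydroxylase in most cells, measured 78.6, 80.5 and 78.2 FPKM in si-NC and 61.5, 60.2 and 62.8 in si-Foxm1. It fell by 0.36 ± 0.03 (adjusted p = 2.47e-07, limma), with no overlap. The alternative subunit gene P4ha2 overlapped between the groups (0.01, 95% interval -0.07 to 0.09). Under median-of-ratios scaling Plod1 (-0.12, adjusted p = 0.00364, limma) and P4ha2 (-0.12, adjusted p = 0.0195, limma) were called lower as well, which makes 9 of 10 lower. The 17.2% of all genes called lower is from the fit without this scaling, and the share with it is not given here.

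**Figure D2:**
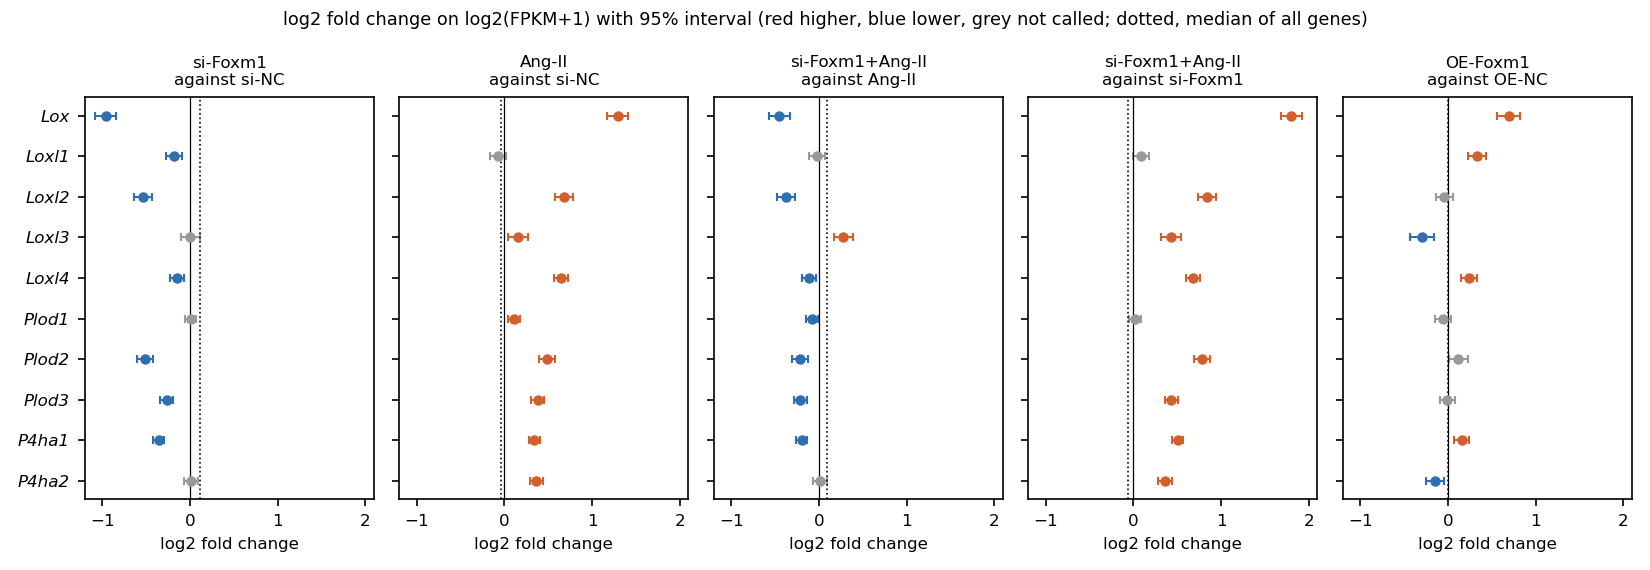
log2 fold change on the log2(FPKM+1) scale (x axis) of each gene (y axis) in 5 comparisons of 3 against 3 libraries; bars are 95% intervals, red marks genes called higher, blue called lower, grey not called, and the dotted line is the median of all genes. Lox has the point farthest from 0 in every panel, at -0.96, 1.29, -0.45, 1.80 and 0.69 from left to right.

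How the hormone changes these cells was addressed by Ang-II against si-NC. Here 9 of the 10 genes rose and 0 fell, while 44.5% of all genes were called, 15.2% higher and 29.2% lower. The members' median was 0.37 and that of all genes -0.03. Ang-II and si-Foxm1 share the si-NC libraries, so the opposite signs of these comparisons are not independent.

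Lox reached 1084, 1154 and 995 FPKM with the hormone, 2.45 times the si-NC mean, and no library overlapped. Its log2 fold change was 1.29 ± 0.06 (adjusted p = 2.51e-09, limma), and 1.35 without Ang-II replicate 3, the library with the lowest Lox of its group. Loxl2 measured 219, 225 and 195 FPKM (0.68 ± 0.05, adjusted p = 1.39e-07, limma), with Ang-II replicate 3 again lowest and still above si-NC. Loxl4 measured 12.5, 12.5 and 12.4 FPKM against 7.71, 7.39 and 7.86 in si-NC. These Loxl4 libraries were nearly equal within each group, and the gene rose by 0.64 ± 0.04 (adjusted p = 2.39e-08, limma), close to Loxl2 on the log2 scale at a far lower level. Loxl3 rose by 0.16 ± 0.05 (adjusted p = 0.0242, limma), a call that was lost when only the compared groups were fitted (adjusted p = 0.0649, limma) and without si-NC replicate 2, Ang-II replicate 1 or Ang-II replicate 2 (adjusted p = 0.118, 0.0655 and 0.0684 for Loxl3, limma). Loxl1 was the only member not called, at 154, 141 and 141 FPKM (-0.07, 95% interval -0.16 to 0.02), and without Ang-II replicate 1 it was called lower (-0.11, adjusted p = 0.0466, limma).

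All 3 lysyl hydroxylase genes rose with angiotensin. Plod2 measured 75.0, 78.6 and 71.9 FPKM, clear of the si-NC range, a log2 fold change of 0.48 ± 0.04 (adjusted p = 1.10e-06, limma). Plod3 measured 63.1 to 66.3 FPKM (0.38 ± 0.03, adjusted p = 9.01e-07, limma). Plod1 moved least, to 41.8 to 45.1 FPKM (0.11 ± 0.03, adjusted p = 0.0103, limma), and this call was lost without Ang-II replicate 1 (0.09, adjusted p = 0.0533, limma). Both prolyl 4-hydroxylase subunits rose by similar amounts. P4ha1 measured 99.4, 101 and 100.3 FPKM (0.34 ± 0.03, adjusted p = 7.70e-07, limma), and P4ha2 48.0, 46.6 and 45.9 FPKM against 37.3, 34.3 and 36.7 in si-NC (0.37 ± 0.04, adjusted p = 2.92e-06, limma). P4ha2 therefore had a called rise with the hormone and no called change with the siRNA.

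The comparison of si-Foxm1+Ang-II with Ang-II asked what the siRNA changes in stimulated cells. Of the 10 genes 7 fell and 1 rose, while 61.4% of all genes were called, 44% higher and 17.4% lower. The members' median was -0.15 and that of all genes 0.09. Lox measured 729.8, 834 and 801 FPKM, which lay below all Ang-II libraries and above all si-NC libraries. It fell by 0.45 ± 0.06 (adjusted p = 1.43e-05, limma), and its mean remained 1.79 times that of si-NC. Loxl2, at 155, 169 and 169 FPKM, fell by 0.37 ± 0.05 (adjusted p = 1.91e-05, limma). Plod2, at 62.1, 64.3 and 67.7 FPKM, fell by 0.21 ± 0.04 (adjusted p = 0.000798, limma). All Plod2 libraries lay between the si-NC and the Ang-II ranges. P4ha1, at 84.7, 87.3 and 90.9 FPKM, fell by 0.19 ± 0.03 (adjusted p = 7.01e-05, limma), and Plod3 by 0.21 ± 0.03 (adjusted p = 0.000104, limma). The same order of groups, Ang-II above si-Foxm1+Ang-II above si-NC above si-Foxm1 with no overlap between neighbours, held for Lox, Loxl2, Loxl4, Plod2, Plod3 and P4ha1, that is 6 of the 10 genes, and for 0.921% of all 11180 genes tested.

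Loxl3 went the other way. It measured 7.42, 7.45 and 7.15 FPKM in Ang-II and 9.40, 9.19 and 8.79 in si-Foxm1+Ang-II. These ranges did not overlap, and the gene rose by 0.28 ± 0.05 (adjusted p = 0.000414, limma), although the siRNA alone gave no called change. The falls of Loxl4 and Plod1 were small. Loxl4 fell by 0.11 ± 0.04 (adjusted p = 0.0201, limma), lost without Ang-II replicate 2 (adjusted p = 0.0511, limma) or si-Foxm1+Ang-II replicate 2 (adjusted p = 0.0960, limma). Plod1 fell by 0.08 ± 0.03 (adjusted p = 0.0331, limma), lost with all 18 libraries in the fit (adjusted p = 0.0640, limma), with only the compared groups (adjusted p = 0.0850, limma), and without Ang-II replicate 1 or 3 or si-Foxm1+Ang-II replicate 2 or 3 (Plod1 adjusted p = 0.142, 0.0843, 0.103 and 0.0809, limma). Loxl1 (-0.03, 95% interval -0.12 to 0.06) and P4ha2 (0.01, 95% interval -0.07 to 0.09) were not called.

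Angiotensin was also compared within siRNA-treated cells. In si-Foxm1+Ang-II against si-Foxm1, 8 of the 10 genes rose and 0 fell, while 47.5% of all genes were called, 12.9% higher and 34.6% lower. The members' median was 0.47 and that of all genes -0.07. Lox rose by 1.80 ± 0.06 (adjusted p = 7.82e-11, limma), 3.50 times its si-Foxm1 mean. Loxl2 (0.84), Plod2 (0.78), Loxl4 (0.68), P4ha1 (0.50), Plod3 and Loxl3 (0.43 each) and P4ha2 (0.36) rose in that order of size. Loxl1 (0.09, adjusted p = 0.104, limma) and Plod1 (0.02, adjusted p = 0.645, limma) did not pass, and median-of-ratios scaling added both (0.17 and 0.10, adjusted p = 0.00781 and 0.0150, limma). The knockdown comparisons share libraries in pairs, so their values stand side by side here and none supports another.

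The interaction asks whether the siRNA effect differs with and without the hormone, on the log2 scale. It was called for 2 of the 10 genes, Lox and Plod2, both higher, while 0.921% of all genes were called, 0.403% higher and 0.519% lower. For Lox the difference was 0.51 ± 0.08 (adjusted p = 0.00991, limma), and it stayed called without any 1 library (0.46 to 0.57). The fall of Lox with the siRNA was thus smaller in proportion with the hormone than without it. In FPKM the mean difference was -215 without and -289.7 with angiotensin, so the order of the falls depends on the scale. For Plod2 the log2 difference was 0.30 ± 0.06 (adjusted p = 0.0405, limma), and the FPKM differences were -16.2 and -10.5. The Plod2 call was lost with no filter on low genes (adjusted p = 0.0889, limma) and without any 1 of 8 libraries, namely si-NC replicates 1, 2 and 3, si-Foxm1 replicates 1 and 2, Ang-II replicate 1, and si-Foxm1+Ang-II replicates 2 and 3 (Plod2 adjusted p from 0.0754 to 0.105, limma). Among the others, P4ha1 stood at 0.16 ± 0.04 (adjusted p = 0.0841, limma) and passed with voom on recovered counts (adjusted p = 0.0449). Loxl3 stood at 0.27 ± 0.07 (adjusted p = 0.111, limma) and passed without si-NC replicate 2 (adjusted p = 0.0360, limma). The remaining 6 lay between -0.09 and 0.16 and did not pass.

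**Figure D3:**
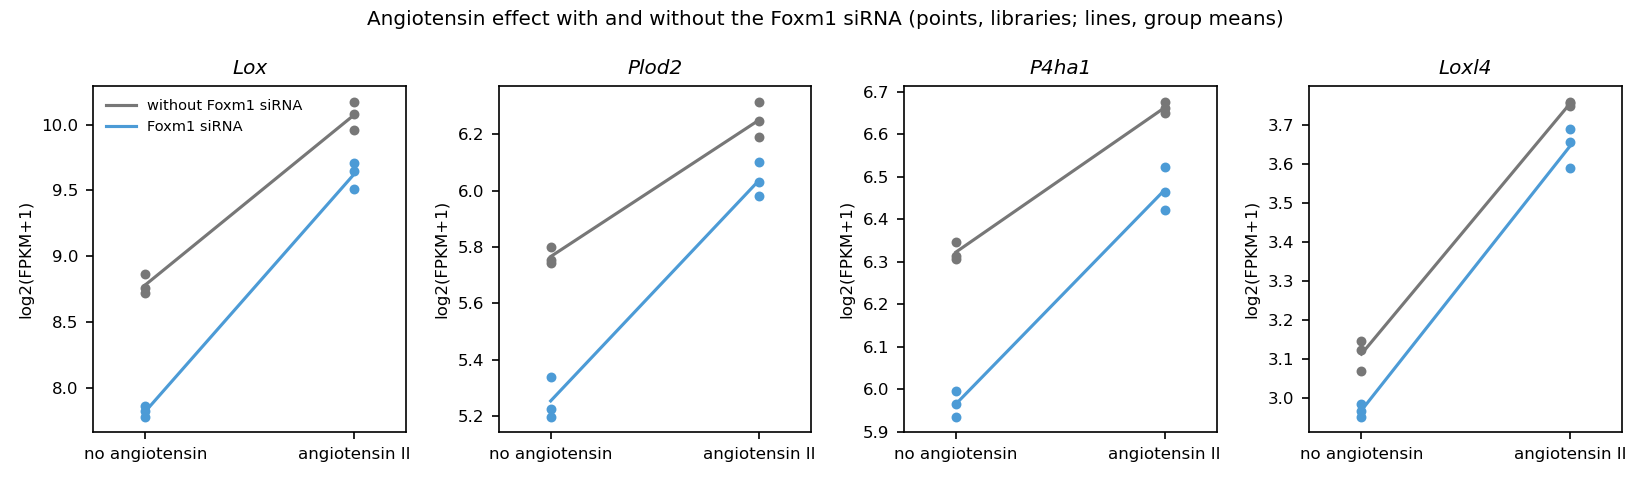
log2(FPKM+1) (y axis, a log scale that differs between panels and does not start at 0) without and with angiotensin II (x axis), for cells without (grey) and with (blue) the Foxm1 siRNA; points are libraries and lines join group means. The lines draw closer on the right for Lox (interaction 0.51) and Plod2 (0.30), whereas the interaction of Loxl4 was 0.04.

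In the overexpression arm OE-Foxm1 was compared with OE-NC. Of the 10 genes 4 rose and 2 fell, while 55.1% of 11259 genes were called, 27.1% higher and 28% lower. The members' median was 0.05 and that of all genes -0.00. Lox measured 140.5, 140.1 and 146 FPKM in OE-NC and 248, 240.2 and 205 in OE-Foxm1. It rose by 0.69 ± 0.06 (adjusted p = 6.07e-06, limma) with no overlap, and OE-Foxm1 replicate 3 was the lowest of its group. Loxl1 rose here too, from 124, 116 and 126 FPKM to 152, 144 and 163 (0.33 ± 0.05, adjusted p = 0.000192, limma), the largest change of Loxl1 in any comparison. Loxl4 lay at 7.87 to 8.25 FPKM in OE-NC and at 9.44 to 9.89 in OE-Foxm1, and rose (0.24 ± 0.04, adjusted p = 0.000711, limma). P4ha1 measured 64.9, 58.9 and 63.0 FPKM in OE-NC and 71.1, 70.5 and 66.9 in OE-Foxm1 (0.16 ± 0.04, adjusted p = 0.00716, limma), a small gap between the ranges.

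The genes that fell with overexpression were Loxl3 and P4ha2. Loxl3 measured 7.41, 7.56 and 8.11 FPKM in OE-NC and 5.85, 5.70 and 6.69 in OE-Foxm1 (-0.30 ± 0.06, adjusted p = 0.00183, limma), with no overlap. P4ha2 measured 49.8, 46.3 and 44.9 FPKM in OE-NC and 41.7, 40.9 and 44.6 in OE-Foxm1 (-0.15 ± 0.05, adjusted p = 0.0175, limma). The P4ha2 ranges nearly touched, and the call was lost without OE-NC replicate 1 or OE-Foxm1 replicate 1 or 2 (adjusted p = 0.0676, 0.0573 and 0.0667 for P4ha2, limma). Plod2 overlapped between the groups (0.12 ± 0.05, adjusted p = 0.0642, limma). It passed with voom (adjusted p = 0.0113) and without OE-NC replicate 3 or OE-Foxm1 replicate 3 (Plod2 adjusted p = 0.0490 and 0.0251, limma). Loxl2, one of the genes that moved most in the knockdown arm, gave -0.04 (95% interval -0.14 to 0.05), and Plod3 gave -0.01 (95% interval -0.09 to 0.08). The lower calls with the siRNA and the higher calls with overexpression had Lox, Loxl1, Loxl4 and P4ha1 in common, that is 4 of 7 and 4 of 4, in arms that share no library. Among 11021 genes tested in both arms 6.62% had both calls, which is 38.3% of the genes called lower with the siRNA and 24.3% of those called higher with overexpression.

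The controls of the arms themselves stood apart, and this difference was not tested because arm and control cannot be told apart. The OE-NC mean of Lox was 142 FPKM against 439.6 in si-NC, and even OE-Foxm1, at 231, lay near si-Foxm1, at 225, with overlapping ranges. Loxl2 and Plod2 in OE-NC also lay at the level of si-Foxm1, with overlapping ranges, whereas P4ha2 was higher in OE-NC (44.9 to 49.8 FPKM) than in si-NC (34.3 to 37.3). Over the 6 groups Lox was ordered Ang-II, si-Foxm1+Ang-II, si-NC, OE-Foxm1, si-Foxm1 and OE-NC, and only OE-Foxm1 and si-Foxm1 overlapped among neighbours. Loxl4 had no overlap between neighbours in its order of Ang-II, si-Foxm1+Ang-II, OE-Foxm1, OE-NC, si-NC and si-Foxm1. For Loxl1 the ranges of neighbours overlapped down to si-Foxm1, and OE-NC alone stood below.

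The makeup of each family changed with these shifts. A share of the summed FPKM of a family does not depend on the scaling between libraries. Lox made up 59.4% ± 1.4 (SD, n = 3) of lysyl oxidase FPKM in si-NC, 48.5% ± 0.23 in si-Foxm1, 74.0% ± 0.84 in Ang-II and 70.6% ± 0.97 in si-Foxm1+Ang-II. In the overexpression arm its share was 38.4% ± 0.77 in OE-NC and 47.3% ± 3.0 in OE-Foxm1. The share of Lox was thus lowest in OE-NC and highest in Ang-II. The share of Loxl1 went the other way, at 20.7% in si-NC, 28.9% in si-Foxm1 and 12.8% in si-Foxm1+Ang-II. Plod2 made up 37.2% of lysyl hydroxylase FPKM in si-NC, 31.2% in si-Foxm1 and 40.9% in Ang-II, while the share of Plod1 was 28.2%, 34.2% and 23.8%. P4ha1 made up 68.6% of the summed FPKM of P4ha1 and P4ha2 in si-NC, 62.8% in si-Foxm1, 68.2% in Ang-II and 57.0% in OE-NC. The further alpha subunit gene P4ha3 is not in this sum. Ranges did not overlap for Lox in any of the 5 comparisons, and those of Plod3 overlapped in all 5. In a two-sided exact permutation test of 3 against 3 the smallest p is 0.1, or 0.123 adjusted over the 65 shares and ratios tested, so no share could pass.

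Each family was also set against its substrate, the summed FPKM of Col1a1, Col1a2 and Col3a1, the main fibrillar collagen genes. The lysyl oxidases were 35.4% of that sum in si-NC, 24.7% in si-Foxm1, 48.3% in Ang-II, 39.4% in si-Foxm1+Ang-II, 22.3% in OE-NC and 24.2% in OE-Foxm1. Their log2 ratio to collagen differed by -0.52 with the siRNA and by 0.45 with angiotensin, with no overlap (exact permutation p = 0.1 each, the smallest possible). Lysyl hydroxylases showed another pattern, at 6.86% in si-NC, 6.35% in si-Foxm1, 6.09% in Ang-II and 5.72% in si-Foxm1+Ang-II. The prolyl 4-hydroxylase subunits P4ha1 and P4ha2, without P4ha3, were likewise 5.51%, 5.22%, 4.87% and 4.76% in these groups. Against this summed collagen the log2 ratios of the hydroxylase families differed by -0.17 and -0.18 with angiotensin, although each of their genes rose. Between OE-Foxm1 and OE-NC the log2 ratio to collagen differed by 0.12 for lysyl oxidases, -0.26 for lysyl hydroxylases and -0.25 for prolyl 4-hydroxylase subunits. The direction for the hydroxylases turned with the choice of collagen, as Col3a1 fell with the hormone while Col1a1 rose. Col3a1 measured 599 to 622 FPKM in si-NC and 387 to 559 in Ang-II, and Col1a1 measured 718 to 756 and 1314 to 1394 FPKM. Against Col1a1 alone, the angiotensin difference of the lysyl oxidases was 0.0945, and those of the hydroxylases were -0.53 each. Against Col3a1 alone, an alternative chosen after seeing the data, they were 1.44 for the lysyl oxidases and 0.82 for each hydroxylase family.

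**Figure D4:**
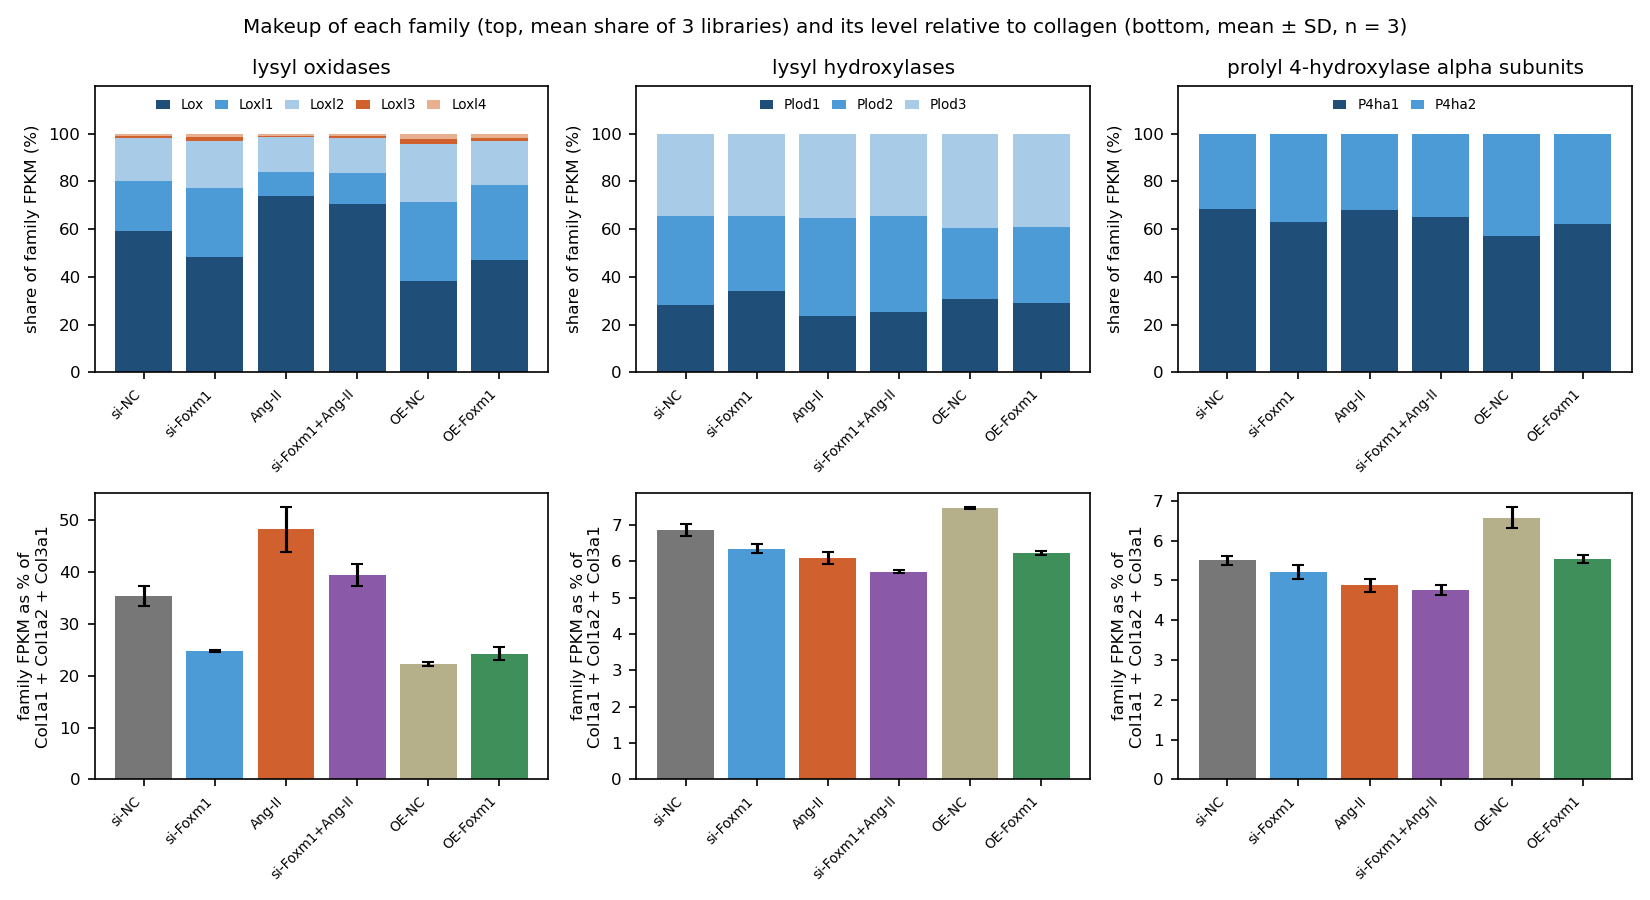
Top, mean share (%, y axis) of each gene in the summed FPKM of its family by group; bottom, summed FPKM of the family as a percentage of Col1a1, Col1a2 and Col3a1 together, bars from 0 with mean and SD of 3 libraries. Lox fills 38.4% of its family in OE-NC and 74.0% in Ang-II, and the lysyl oxidases reach 48.3% of collagen FPKM in Ang-II while both hydroxylase families are lower there than in si-NC, a direction that turns against Col3a1 alone.

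The other genes of collagen hydroxylation and folding were called mostly higher with angiotensin and in both directions with the siRNA, and the sizes of these effects were not tested against each other. Of 17 tested genes of this list 14 rose and 0 fell in Ang-II (median 0.25; 15 and 0 under median-of-ratios scaling), while 3 rose and 4 fell in si-Foxm1 (median 0.02; 1 and 11 under median-of-ratios scaling). P4hb, the protein disulfide isomerase that is the beta subunit of prolyl 4-hydroxylase, measured 327 to 336 FPKM in si-NC and 407 to 427 in Ang-II. It was more abundant than P4ha1 and P4ha2 together in every group. P3h1, the prolyl 3-hydroxylase of the collagen chaperone complex, rose by 0.60 ± 0.03 with angiotensin and fell by 0.18 ± 0.03 with the siRNA (adjusted p = 9.27e-09 and 0.000157, limma). Fkbp10, a prolyl isomerase needed for telopeptide lysine hydroxylation, rose by 0.47 ± 0.03 with angiotensin (adjusted p = 1.68e-07, limma) and was not called with the siRNA (0.04 ± 0.03). In si-Foxm1+Ang-II against Ang-II 3 of the 17 rose and 3 fell, where 44% of all genes rose and 17.4% fell. In OE-Foxm1 8 rose and 2 fell, where 27.1% of all genes rose and 28% fell. Without median-of-ratios scaling, 15.2% of all genes rose and 29.2% fell with angiotensin, and 48.5% and 17.2% with the siRNA.

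The substrates followed the enzymes only in part. Of 8 tested fibrillar collagen and elastin genes 7 fell and 0 rose with the siRNA (median -0.24), and 5 rose and 2 fell with angiotensin (median 0.58). Col11a1, a minor fibrillar collagen that sets fibril width, rose by 1.68 ± 0.04 with angiotensin and fell by 0.46 ± 0.04 with the siRNA (adjusted p = 1.06e-11 and 3.95e-07, limma). It was the only gene of the list with a called interaction (0.33 ± 0.06, adjusted p = 0.0144, limma). With overexpression 6 of the 8 rose and 0 fell (median 0.25). Of 13 tested genes that activate lysyl oxidases or hold them in the matrix, 2 rose and 6 fell with the siRNA, 5 rose and 4 fell with angiotensin, and 9 rose and 2 fell with overexpression. Tll1, a protease of the family that matures procollagen and pro-lysyl oxidase, rose by 1.54 ± 0.07 with angiotensin and fell by 0.70 ± 0.05 with overexpression (adjusted p = 2.29e-09 and 1.55e-06, limma). Fbln5, a fibulin of elastic fibres, rose by 0.70 ± 0.04 with angiotensin and fell by 0.35 ± 0.04 with the siRNA (adjusted p = 1.01e-08 and 1.99e-06, limma). TGF-beta induced genes, a program known to include Lox, numbered 13 tested. Among them 1 rose and 6 fell with the siRNA, 7 rose and 4 fell with angiotensin, and 6 rose and 3 fell with overexpression. For all genes tested the shares that rose and fell were 48.5% and 17.2% with the siRNA and 15.2% and 29.2% with angiotensin. With overexpression they were 27.1% and 28%.

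The genes whose pattern was most like that of Lox over the 12 knockdown libraries were Fn1, which encodes fibronectin, the protease gene Adamts12 and the annexin gene Anxa8 (Pearson r = 0.996, 0.995 and 0.994 on log2(FPKM+1), among 11179 other genes). Over all 18 libraries these values were 0.979, 0.970 and 0.984. Fn1 had a narrower range than Lox, with group means of 1203 FPKM in si-Foxm1 and 1762 in Ang-II. Among the enzymes themselves, Loxl2 ranked 5 and Plod2 ranked 7 for Lox (r = 0.991 and 0.989). For Plod2 the closest genes were Map6, P4ha1 and Wwc2 (r = 0.994, 0.992 and 0.992), and for P4ha1 they were Ccn5, Map6 and Fads3 (r = 0.994, 0.994 and 0.993). Loxl1 had r between 0.03 and 0.47 with the other 9 genes. The 12 points fall into 4 groups and share their treatment, so these values describe likeness of group means.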

How the data were processed

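RNA was extracted with the mirVana kit and libraries were made with a TruSeq stranded mRNA kit, per the labels' protocols. The authors used fastp, HISAT2, HTSeq and the mm39 build, per the submitters' processing notes, which give no versions here. The authors deposited FPKM per gene symbol, and the gene lengths used are not given. All 17960 genes above 0 gave whole fragment counts within 0.02 when FPKM was compared between libraries, and these gave the library totals and the voom alternative.

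FPKM plus 1 was put on the log2 scale and fitted with limma 3.58.1 in R 4.3.3 (eBayes, mean-variance trend), with the 12 knockdown libraries in 1 fit and the 6 overexpression libraries in another. Testing covered genes with a mean of at least 1 FPKM, with Benjamini-Hochberg adjustment over all of them, and genes with an adjusted p under 0.05 were called. Changes of genes with low FPKM are understated on this scale. Shares of all genes called come from these fits, also where a count under median-of-ratios scaling stands beside them. Shares, ratios and sequences were computed in Python 3.11.15. Named besides the members were Foxm1, list genes with the smallest p, and the 3 genes most like Lox, Plod2 and P4ha1. Also named were Col1a1, Col1a2 and Col3a1 as substrates, and P4ha3, P4hb and Hif1a outside that rule. The members and lists were chosen with earlier results of these data known. Scripts were tested on simulated data. Alternatives were other pseudocounts, filters, scalings and fits, a replicate block, voom, single collagen genes as the substrate and each library left out in turn. Promoters and UTRs come from GRCm38, not the authors' build, and no coordinate was carried between them.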

Additional observations from a re-analysis of the deposited data

Results flagged for a closer look

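The angiotensin effect differed on the log2 scale with and without the Foxm1 siRNA for 2 of the 10 genes, by a test of the difference itself. For Lox the log2 effect of the hormone was 1.80 in siRNA-treated cells and 1.29 in the others, a difference of 0.51 ± 0.08 (adjusted p = 0.00991, limma; 3 libraries in each of 4 groups). For Plod2 it was 0.78 and 0.48, a difference of 0.30 ± 0.06 (adjusted p = 0.0405, limma). The Plod2 call was lost with no filter on low genes (adjusted p = 0.0889, limma). It was also lost without any 1 of 8 libraries (adjusted p up to 0.105, limma). In FPKM the mean rise of Lox with the hormone was 563 in siRNA-treated cells and 638 in the others, so its order depends on the scale. Of all 11180 genes 103 passed the test of the difference on the log2 scale. The levels of Foxm1 moved in the same libraries, since Foxm1 was already lower with angiotensin (4.03 to 5.65 FPKM) than in si-NC (9.64 to 10.4 FPKM), and its part in the difference was not tested.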

How the results depend on the processing

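Over all alternatives 1190 values of the 10 genes were recomputed, and 1131 kept their direction and their side of the threshold. Of the rest, 22 were uncalled values that changed sign, 25 lost a call, 10 gained one and 2 turned. Those that turned were Plod1 (-0.12, adjusted p = 0.00364, limma) and P4ha2 (-0.12, adjusted p = 0.0195, limma) in si-Foxm1 against si-NC under median-of-ratios scaling. With no filter on low values, 1 member kept a called interaction. When each library was left out in turn, members called lower in Ang-II numbered 0 to 1, members with a called higher interaction 1 to 2, and members called lower in OE-Foxm1 1 to 2. The values given next for ratios are differences in log2 ratio to collagen between the 2 groups compared. With Col1a1 alone as the substrate, the lysyl oxidase value was 0.0945 in Ang-II against si-NC and 0.32 in si-Foxm1+Ang-II against si-Foxm1. The lysyl hydroxylase ratio was then -0.53, -0.50 and -0.31 in these comparisons and in OE-Foxm1, and the prolyl 4-hydroxylase ratio -0.53 and -0.48 in the first and second. Col1a2 and Col3a1 alone were chosen after seeing the data. With Col1a2 the lysyl oxidase ratio was 0.27 and 0.56 in the first and second, the lysyl hydroxylase ratio -0.35, -0.26 and -0.25 in all 3 and -0.19 in si-Foxm1 against si-NC, and the prolyl 4-hydroxylase ratio -0.36 and -0.24 in the first and second and -0.15 in si-Foxm1 against si-NC. With Col3a1 the lysyl oxidase ratio was 1.44 and 1.60 in the first and second and -0.38 in si-Foxm1 against si-NC. The hydroxylase ratios then turned in 3 comparisons, to 0.82, 0.78 and 0.019 for lysyl hydroxylases and 0.82, 0.80 and 0.054 for prolyl 4-hydroxylase in the first, the second and si-Foxm1 against si-NC. In si-Foxm1+Ang-II against Ang-II they were -0.022 and 0.033, and the lysyl hydroxylase ratio was -0.23 in OE-Foxm1. Nothing in the labels says that replicate numbers pair libraries, and not every same-numbered pair passed a correlation of 0.1, so the numbers were not taken as pairs. For these correlations each library was taken as its deviation from its group mean of log2(FPKM+1). Correlations of same-numbered libraries were -0.04 to 0.18, above 0 in 18 of 21 pairs and over 0.1 in 8, of which 6 were among the 7 pairs numbered 2. Differently numbered pairs were above 0 in 12 of 42 and over 0.1 in 2. The deviations of a group sum to 0, so these pairs are not independent of the same-numbered ones. A library correlated best with its own number in 30 of 42 cases, a hint of pairing from the data and not from the design. A fit with the replicate block changed no call of the 10 genes, with Lox at -0.96 (adjusted p = 3.22e-08, limma) in si-Foxm1 against si-NC and at 0.51 (adjusted p = 0.00718, limma) for the interaction. Depth limits Loxl3 and Loxl4 most, with a counting error of up to 4.97% and 3.82% of a value.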

Other observations

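Genes that supply the cofactors of these enzymes did not move as a block. The list of copper uptake and delivery genes is not specific to the lysyl oxidases. Of 10 tested, 5 rose and 2 fell with the siRNA (1 and 4 under median-of-ratios scaling). With angiotensin 0 rose and 2 fell, and with overexpression 6 rose and 1 fell. Of all genes tested without that scaling, 48.5% rose and 17.2% fell with the siRNA. These shares were 15.2% and 29.2% with angiotensin, and 27.1% and 28% with overexpression. Steap3, a metalloreductase gene, fell by 0.56 ± 0.06 with the siRNA and by 0.56 ± 0.06 with the siRNA under angiotensin (adjusted p = 2.22e-06 and 2.18e-06, limma). Of 11 tested genes for ascorbate, iron and 2-oxoglutarate supply, the siRNA raised 4 and lowered 4, angiotensin raised 3 and lowered 2, and overexpression raised 3 and lowered 3. The ferritin genes went apart, with the light chain Ftl1 higher by 0.77 ± 0.04 and the heavy chain Fth1 at -0.64 ± 0.04 with the siRNA (adjusted p = 8.24e-09 and 9.04e-09, limma).

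Calls of oxygen-sensing genes went both ways as well. The 9 tested genes of the hypoxia-inducible factor pathway were its hydroxylases, its subunits and Vhl. Of these, 4 were called higher and 4 lower with the siRNA, and angiotensin gave 1 higher and 4 lower. The list pools the subunits of the factor with genes that act on it, so these counts give no direction for the pathway. Epas1, an alpha subunit of that factor, fell by 1.12 ± 0.06 with angiotensin (adjusted p = 2.25e-08, limma). The 1 gene called higher was another alpha subunit, Hif1a, at 0.16 ± 0.03 (adjusted p = 0.000226, limma). A link of either to the rises of P4ha1, P4ha2 and Plod2 with the hormone was not tested. Of 18 tested hypoxia-induced genes other than the enzymes, 5 rose and 6 fell with angiotensin (median 0.01), and 8 rose and 5 fell with the siRNA (2 and 7 under median-of-ratios scaling). Among them Ndrg1 rose by 1.04 ± 0.06 and Ddit4 by 0.36 ± 0.04 with angiotensin (adjusted p = 1.49e-08 and 1.24e-05, limma). The lactate dehydrogenase gene Ldha fell by 0.13 ± 0.03 with angiotensin (adjusted p = 0.00131, limma). Tgfbi, a matrix protein gene of the TGF-beta list, had an interaction of the sign opposite to that of Lox (-1.03 ± 0.10, adjusted p = 0.000400, limma).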
